A study of Homo sapiens with 36 samples.

Results

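The non-coding snoRNA host genes are RNAs with little or no protein-coding role whose introns, or retained introns, carry small nucleolar RNAs (snoRNAs). They were taken as every gene with a current symbol of SNHG and a number, plus GAS5, ZFAS1 and DANCR, that had any count in the total RNA tables. This gave 31 genes of the 59607 features in those tables, and 30 of them are also among the 60095 features of the polyA tables, SNHG32 being the one that is not. The lowest total was 1 count over the 24 total RNA libraries (SNHG18), and SNHG14, SNHG18 and SNHG27 were too low to be tested, which left 28 tested genes in total RNA and 27 in polyA RNA.

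The RNA came from HCT116, a human colon carcinoma line. Control cells expressed TIR1, the plant receptor through which auxin directs a tagged protein to degradation, and the DIS3-AID cells were 1 CRISPR clone, in that TIR1 background, whose DIS3 carries an auxin-inducible degron (AID). DIS3 is a catalytic ribonuclease of the RNA exosome. Each line was either left untreated or given 500 uM auxin for 1 h, so there were 4 groups, each with 3 libraries, in cytoplasm total RNA, in chromatin total RNA and in cytoplasm polyA RNA. Levels are CPM, a count scaled to a library of fixed size, on library sizes scaled by the trimmed mean of M values (TMM), given as mean ± SD over 3 libraries. The series design calls the cytoplasm triplicates technical, and every p-value here then speaks only of how far those libraries spread. In bulk RNA fewer cells of a kind and less RNA per cell cannot be told apart.

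As background, a snoRNA is usually released when its host intron is spliced, debranched and trimmed by exonucleases, the exosome among them at the 3′ end. Box C/D snoRNAs guide 2′-O-methylation of RNA and box H/ACA snoRNAs guide pseudouridylation, while small Cajal body RNAs (scaRNAs) guide the same changes in spliceosomal RNAs. Many spliced host RNAs carry short open reading frames and are degraded in the cytoplasm by nonsense-mediated decay (NMD). Several host RNAs are known to begin with a run of pyrimidines, as ribosomal protein mRNAs do.

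The RefSeq annotation placed 29 of the 31 hosts over named snoRNAs. By majority of those names, 12 hosts carry mostly H/ACA snoRNAs or as many H/ACA as C/D, 13 carry mostly C/D snoRNAs, 4 carry a scaRNA, and SNHG27 and SNHG28 hold no named one. The grouping was made after the values were known, and GAS5 counts as a C/D host although RefSeq also places the H/ACA RNA SNORA103 within it. The sequences of 5 of these guests follow, chosen because their own counts, or the share of the host count that they add to, are given further on. They are from GENCODE 29 (hg38), 5′ to 3′ in DNA letters. In the first 3, capitals mark the ACA near the 3′ end, the box that gives H/ACA RNAs their name. In the last 2, capitals mark GATG of box C and CTGA of box D.
SNORA9: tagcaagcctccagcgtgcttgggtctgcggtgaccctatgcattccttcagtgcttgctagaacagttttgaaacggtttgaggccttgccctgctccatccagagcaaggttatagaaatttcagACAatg
SNORA50C: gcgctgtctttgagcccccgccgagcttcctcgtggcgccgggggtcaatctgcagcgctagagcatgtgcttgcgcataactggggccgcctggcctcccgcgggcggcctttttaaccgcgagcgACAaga
SCARNA16: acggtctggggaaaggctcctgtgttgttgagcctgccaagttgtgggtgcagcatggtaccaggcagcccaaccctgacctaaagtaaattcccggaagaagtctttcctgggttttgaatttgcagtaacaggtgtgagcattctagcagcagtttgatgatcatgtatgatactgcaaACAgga
SNORD1A: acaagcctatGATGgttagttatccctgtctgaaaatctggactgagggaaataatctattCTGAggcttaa
SNORD12: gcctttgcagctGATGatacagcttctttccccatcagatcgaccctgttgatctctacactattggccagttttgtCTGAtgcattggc

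Of all 147 annotated SNORA RNAs, 91.2% hold ACA within their last 8 bases, and of 278 SNORD RNAs, 83.1% hold GATG starting within the first 15 bases and CTGA within the last 15. SNORA9 lies in SNHG15 at chr7:44985378-44985510 and SNORA50C in SNHG25 at chr17:64146339-64146471. SCARNA16 lies in SNHG20 at chr17:77089307-77089493. SNORD1A lies in SNHG16 at chr17:76561634-76561705 and SNORD12 in ZFAS1 at chr20:49280683-49280772. All 5 lie within annotated exon bases of their hosts, so that their reads can also be host reads.

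Library depth was 59450421 to 122574347 counts in cytoplasm total RNA, 50278746 to 139011514 on chromatin and 25859633 to 33068609 in polyA RNA. In untreated control cells, 3 of 4 tested chromatin-retained RNAs were higher on chromatin and the other, TUG1, was higher in the cytoplasm (log2 difference, chromatin minus cytoplasm, -1.61), and 5 of 5 cytoplasmic RNAs were higher in the cytoplasm. The RNA of DIS3 itself, whose protein carries the degron, was 90.5 ± 2.58 CPM in untreated control and 50.1 ± 2.63 CPM in untreated DIS3-AID cytoplasm. It did not pass the test after auxin in DIS3-AID cells (log2 change -0.13, SE 0.05, adjusted p = 0.0637 by edgeR), so the DIS3 RNA does not check the auxin labels.

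In untreated control cytoplasm the hosts spanned a wide range of levels per kilobase of exon. The length counts every annotated exon base, retained introns included, so the order depends on the annotation. These bases cover 95.6% of the gene span of SNHG1 and 9.4% of that of SNHG29. SNHG16 (158.8 ± 1.25 CPM per kb) and SNHG29 (152.7 ± 2.26) stood highest, and their 3 libraries did not overlap. ZFAS1 followed at 49.6 ± 2.21, then SNHG8 at 32.5 ± 0.626 and DANCR at 31.2 ± 1.18, and the last 2 lay within their spread of each other. The lowest of the tested hosts were SNHG22 at 0.344 ± 0.0387 and SNHG28 at 0.234 ± 0.00703 CPM per kb. On chromatin ZFAS1 came first at 98.8 ± 8.12 and SNHG3 second at 64.0 ± 4.24 CPM per kb. In polyA RNA SNHG29 came first at 281.1 ± 14.5 and SNHG6 second at 167.7 ± 6.92.

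After 1 h of auxin, DIS3-AID cells held more of most of these host RNAs in the cytoplasm. Of 28 tested hosts in cytoplasm total RNA, 17 rose, 1 fell and 10 did not pass (edgeR quasi-likelihood test, Benjamini-Hochberg adjusted p < 0.05 over 23027 features). Of all features, 21.1% rose and 13.2% fell. The median log2 change was 0.46 for the hosts and -0.05 for all features, and the host changes ran from -0.16 to 1.33. The hosts' summed level went from 2167.5 CPM (range 2095.0 to 2207.9) to 2494.0 CPM (2403.1 to 2544.9). The rises were uneven across the guest classes: 9 of 12 H/ACA hosts, 4 of 4 scaRNA hosts and 4 of 11 tested C/D hosts rose. Median log2 changes were 0.72, 0.70 and 0.01 in that order, with no test of the difference between classes. Counts of snoRNAs inside host exons can be part of these host counts. With them taken off, as given further on, the H/ACA host SNHG25 lost its call. The H/ACA hosts SNHG12, SNHG15 and SNHG7 then rose less, and the scaRNA host SNHG20 rose more. The class medians were not taken again under that setting. The plot of changes by class shows all 28.

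**Figure D1:**
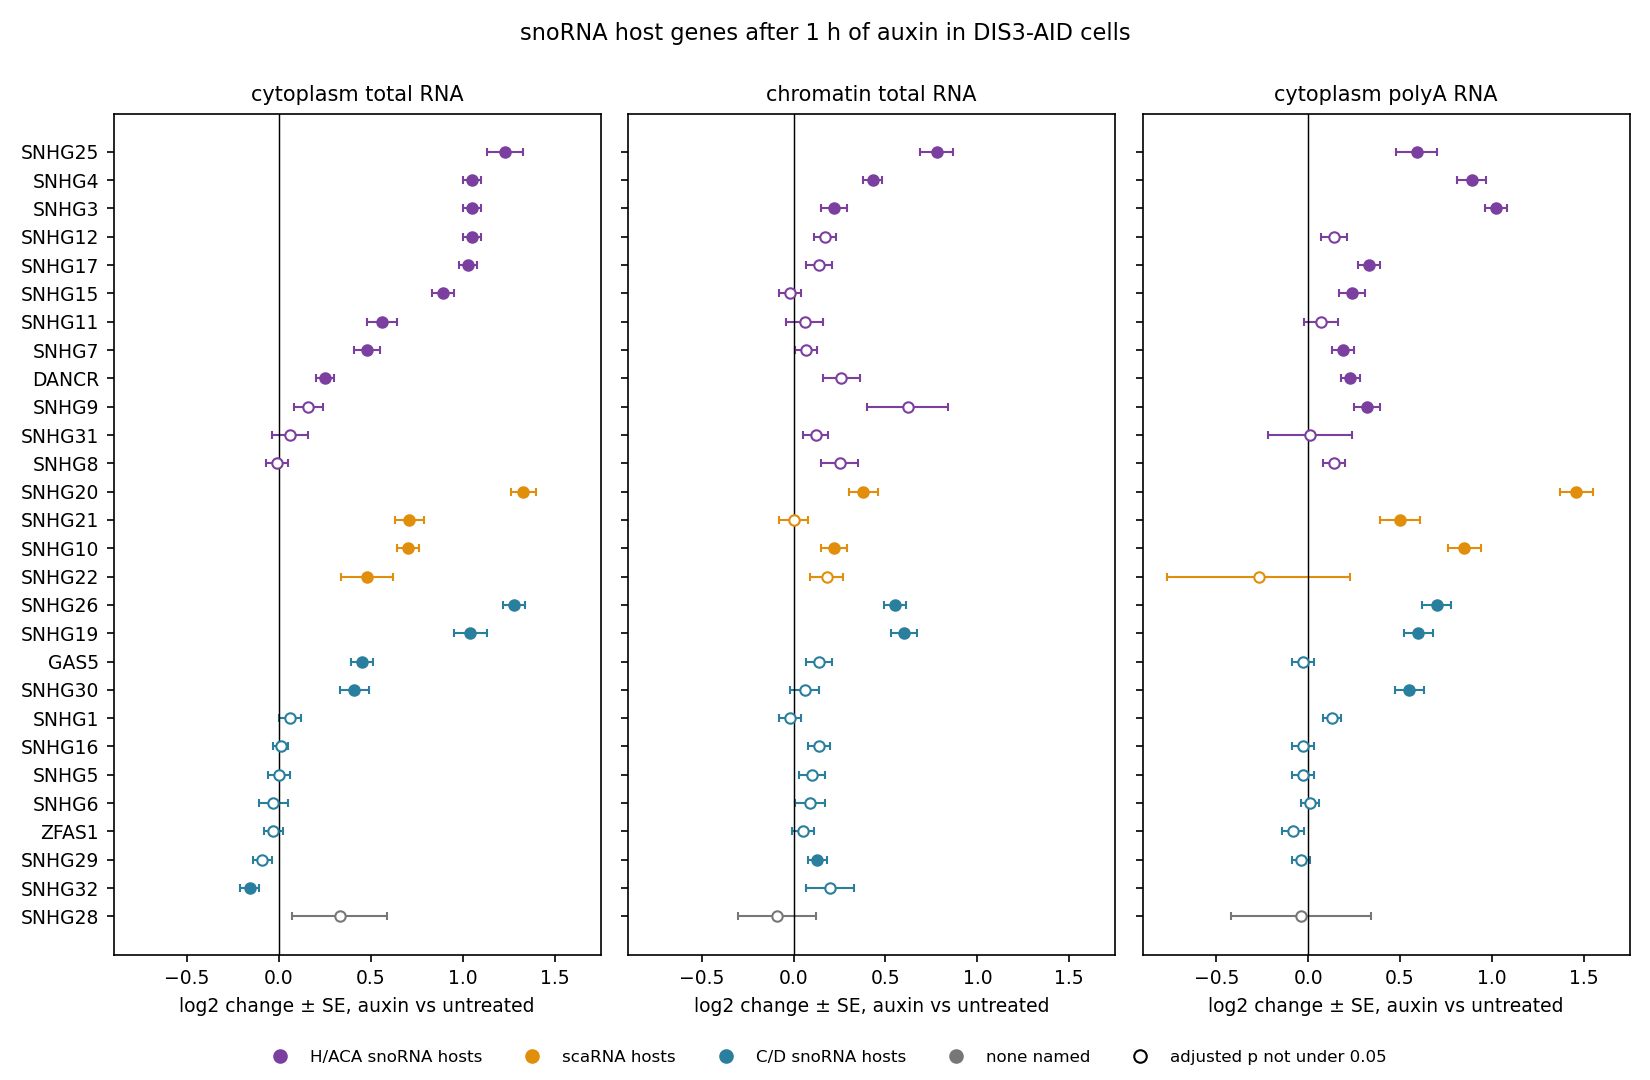
log2 change ± SE of each host after auxin in DIS3-AID cells (x axis) in the 3 data sets, with hosts on the y axis grouped by the class of RNA they carry. Filled points passed adjusted p < 0.05: 17 rises and 1 fall in cytoplasm total RNA, 8 rises on chromatin and 14 rises in polyA RNA.

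SNHG20 (ENSG00000234912.11, chr17:77086716-77099902, plus strand), the host of SCARNA16, rose most. Its untreated DIS3-AID libraries held 13.5, 14.2 and 13.5 CPM, and its auxin libraries 33.1, 36.1 and 34.2 CPM. The groups were far apart, and control cells stayed low with 12.4 ± 0.605 CPM untreated and 11.3 ± 1.12 CPM with auxin. The log2 change was 1.33 (SE 0.07, adjusted p = 1.25e-11, edgeR).

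SNHG26 (ENSG00000228649.8, chr7:22854178-22861579, plus strand) hosts the C/D snoRNA SNORD93. It went from 12.2, 13.5 and 12.8 CPM to 30.5, 31.8 and 31.4 CPM, against 10.1 ± 0.126 CPM in auxin-treated control cells. Every auxin-treated DIS3-AID library lay above every untreated one, with a log2 change of 1.28 (SE 0.06, adjusted p = 1.67e-12, edgeR). SNHG25 (ENSG00000266402.3, chr17:64145970-64146476, plus strand), a short host of SNORA50C and SNORD104, held 5.86, 5.03 and 5.15 CPM untreated and 11.7, 13.8 and 12.3 CPM with auxin. Its log2 change was 1.23 (SE 0.10, adjusted p = 3.53e-09, edgeR), a call that was lost when the counts of its nested snoRNAs were taken off, as given further on.

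SNHG12 (ENSG00000197989.13, chr1:28578538-28583132, minus strand) carries SNORA16A, SNORA44, SNORA61 and SNORD99. Its libraries went from 21.7, 21.4 and 22.8 CPM to 46.3, 46.7 and 43.7 CPM, a log2 change of 1.05 (SE 0.05, adjusted p = 9.29e-12, edgeR), while control cells held 16.1 ± 0.44 CPM untreated and 16.9 ± 0.637 CPM with auxin. SNHG3 and SNHG4 changed by as much to 2 decimals (1.05 each), and SNHG19 (1.04) and SNHG17 (1.03) followed. The remaining 9 risers ranged from SNHG15 (0.89), SNHG21 (0.71), SNHG10 (0.70) and SNHG11 (0.56) through SNHG7 and SNHG22 (0.48 each) and GAS5 (0.45) to SNHG30 (0.41) and DANCR (0.25). SNHG22 lost its call without auxin-treated DIS3-AID library 1 (adjusted p = 0.0667, edgeR).

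The 4 most studied of these RNAs did not move alike. GAS5 (ENSG00000234741.7, chr1:173863900-173868882, minus strand), a growth-arrest RNA and known NMD substrate, held 66.6, 66.4 and 61.0 CPM untreated and 88.5, 91.3 and 85.3 CPM with auxin. It rose by 0.45 on the log2 scale (SE 0.06, adjusted p = 1.13e-05, edgeR), and its groups did not overlap. DANCR (ENSG00000226950.6, chr4:52712404-52720351, plus strand), an RNA first described as holding back differentiation, went from 60.0, 56.9 and 57.6 CPM to 69.4, 72.1 and 66.7 CPM, a log2 change of 0.25 (SE 0.05, adjusted p = 0.000522, edgeR). Untreated control cells held 71.4 ± 2.71 CPM of DANCR, above every untreated DIS3-AID library and within the range of the auxin-treated ones.

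ZFAS1 (ENSG00000177410.12, chr20:49278178-49295738, plus strand), the host of the 3 SNORD12 RNAs, held 119.9, 118.6 and 117.8 CPM untreated and 118.0, 114.7 and 115.8 CPM with auxin (log2 change -0.03, SE 0.05, adjusted p = 0.656, edgeR). SNHG1 (ENSG00000255717.6, chr11:62851988-62855914, minus strand), which carries 8 C/D snoRNAs, held 97.9, 95.9 and 89.0 CPM and then 101.1, 97.2 and 96.6 CPM (log2 change 0.06, SE 0.06, adjusted p = 0.416, edgeR). In both the groups overlapped. SNHG16, SNHG5, SNHG8, SNHG6, SNHG29, SNHG31, SNHG9 and SNHG28 did not pass either, with log2 changes from -0.09 (SNHG29) to 0.33 (SNHG28). The plot of levels by library shows these contrasts.

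**Figure D2:**
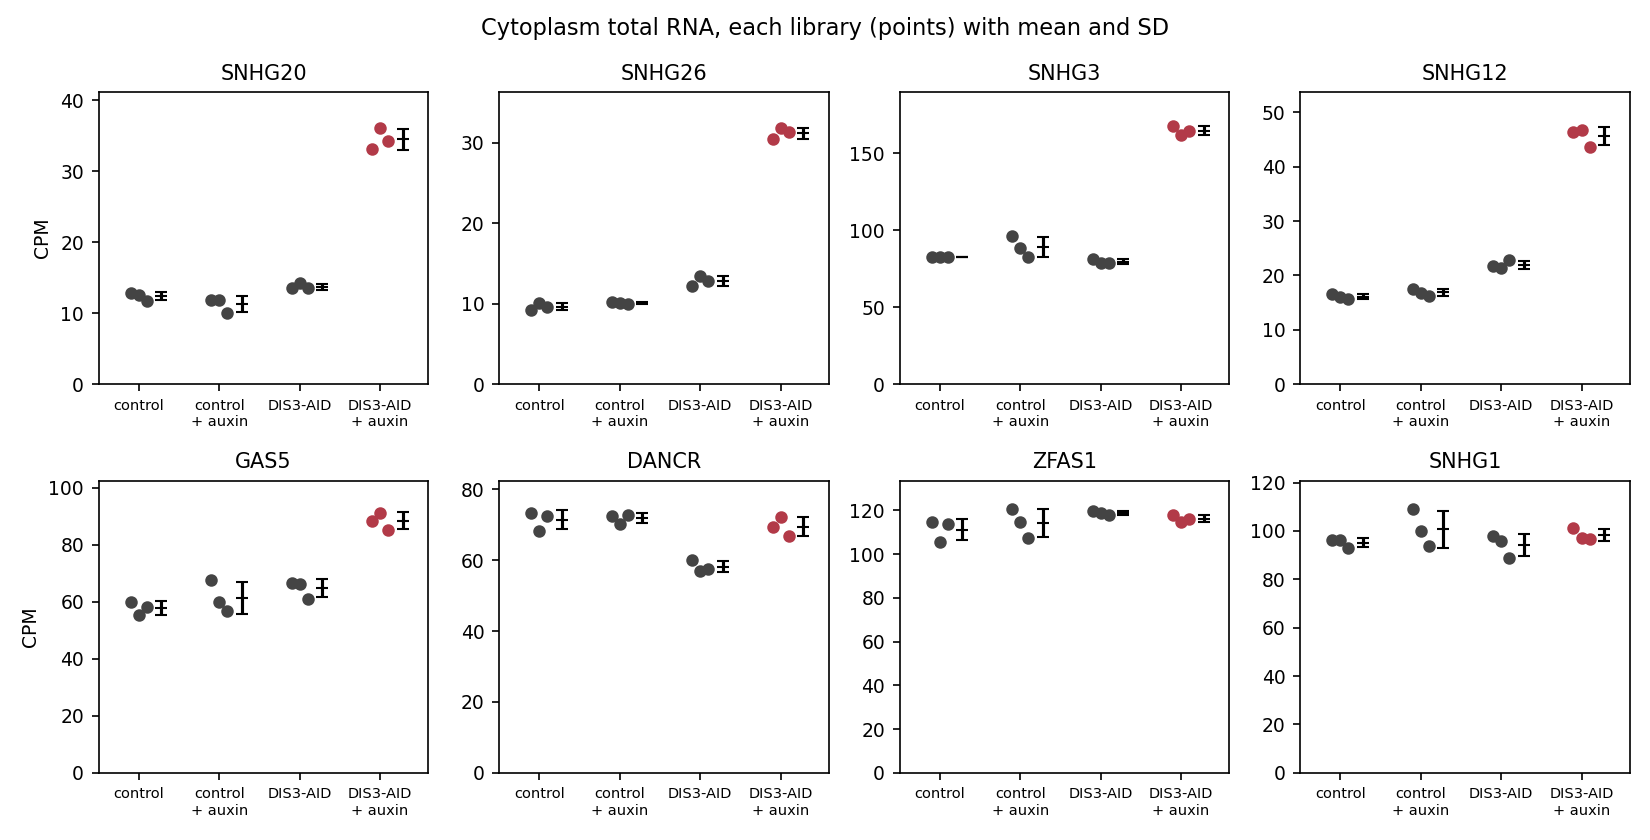
CPM in cytoplasm total RNA (y axis, from 0) of 8 hosts in each library of the 4 groups, with mean and SD beside the points. SNHG20, SNHG26, SNHG3 and SNHG12 in auxin-treated DIS3-AID cells (red) stood above every other group, GAS5 did so by a smaller margin, and ZFAS1 and SNHG1 overlapped between groups.

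SNHG32 (ENSG00000204387.12, chr6:31834608-31839766, plus strand), annotated as protein-coding C6orf48 in GENCODE 29, was the only host that fell. It went from 25.9, 24 and 25.2 CPM to 22.9, 22.6 and 21.8 CPM, a log2 change of -0.16 (SE 0.05, adjusted p = 0.0301, edgeR). The call was lost without untreated DIS3-AID library 1 or 3 or auxin-treated library 2 or 3 (adjusted p from 0.106 to 0.178, edgeR), and under 4 other settings.

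In control cells auxin moved none of the 28 hosts in cytoplasm total RNA and none of the 27 in polyA RNA (edgeR, and DESeq2 also called 0 in each). Of all features, 0.0217% rose and 0.0261% fell in the former, and 0.012% rose and 0.036% fell in the latter. At an unadjusted p under 0.05 there were 3 hosts and 1 host. On chromatin 2 hosts passed, DANCR (0.34, SE 0.10, adjusted p = 0.0206, edgeR) and SNHG26 (0.26, SE 0.06, adjusted p = 0.00853, edgeR), where 9.02% of all features rose and 7.97% fell. DANCR lost its call without untreated control library 2 or 3 or auxin-treated control library 1 or 2 (adjusted p from 0.072 to 0.114, edgeR), and SNHG26 without untreated control library 2 (adjusted p = 0.0554), which left 0 hosts. The difference between the lines was tested directly, by subtracting the auxin change of control cells from that of DIS3-AID cells. In cytoplasm total RNA it passed for 15 hosts, all positive, where 16.1% of all features passed as positive and 3.31% as negative. The largest were SNHG20 (1.46, SE 0.10), SNHG25 (1.34, SE 0.14) and SNHG26 (1.21, SE 0.08). SNHG25 did not pass once its nested snoRNA counts were taken off (0.30, adjusted p = 0.278, edgeR). SNHG22 and SNHG30 rose without passing this test, so in cytoplasm total RNA a rise particular to DIS3-AID cells was not shown for them. In polyA RNA SNHG30 rose and also passed the difference from control cells.

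On chromatin fewer hosts moved and by less. Of 28, 8 rose and none fell, against 11% and 9.54% of all features, with a median log2 change of 0.14 against 0.00 (15 hosts had an unadjusted p under 0.05). SNHG25 went from 4.60, 4.38 and 4.92 CPM to 7.80, 7.64 and 8.36 CPM (0.78, SE 0.09, adjusted p = 5.75e-06, edgeR). SNHG19 (ENSG00000260260.1, chr16:2154797-2155358, minus strand), the host of SNORD60, went from 7.71, 7.01 and 7.44 CPM to 11.4, 10.8 and 11.5 CPM (0.60, SE 0.07, adjusted p = 9.18e-06, edgeR). Neither had overlapping groups.

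SNHG26 held 46.0, 43.2 and 43.3 CPM on untreated DIS3-AID chromatin and 69.8, 59.8 and 63.9 CPM with auxin (0.55, SE 0.06, adjusted p = 7.8e-06, edgeR), and in control chromatin it also rose from 36.4 ± 2.39 to 43.7 ± 0.929 CPM. SNHG4 (ENSG00000281398.2, chr5:139274102-139284899, plus strand), host of SNORA74A and SNORA74D, went from 140.1, 143.7 and 144.9 CPM to 191.3, 191.8 and 193.2 CPM (0.43, SE 0.05, adjusted p = 3.05e-06, edgeR). All auxin libraries of both hosts lay above all untreated ones. SNHG20 (0.38), SNHG3 (0.22), SNHG10 (0.22) and SNHG29 (0.13) rose as well, and the last 3 lost their calls under several settings and left-out libraries, with adjusted p up to 0.127, 0.123 and 0.175 over the left-out libraries (edgeR).

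The 4 well-known hosts did not pass on chromatin. GAS5 held 104.9, 90.0 and 108.6 CPM untreated and 106.3, 108.0 and 120.9 CPM with auxin. DANCR held 24.6, 20.2 and 20.1 CPM and then 29.2, 24.7 and 23.9 CPM. In both, the groups overlapped. ZFAS1 held 218.3, 214.6 and 225.2 CPM and then 232.9, 217.3 and 228.9 CPM, and SNHG1 held 97.4, 92 and 103.3 CPM and then 90.4, 99.3 and 99.8 CPM. Log2 changes were 0.14, 0.26, 0.05 and -0.02 in that order, and adjusted p was 0.153, 0.0632, 0.64 and 0.88 (edgeR). The chromatin difference from control cells passed for SNHG25, SNHG19, SNHG4, SNHG20 and SNHG26, all 5 positive, against 8.54% of all features positive and 9.2% negative. With the nested snoRNA counts taken off, SNHG25 lost this call (0.50, adjusted p = 0.0577, edgeR) and SNHG29 gained one (0.21, adjusted p = 0.0307, edgeR). Of the chromatin rises, 5 were left without auxin-treated DIS3-AID library 2 or 3. Of the chromatin differences from control, 3 were left without untreated or auxin-treated control library 1, untreated DIS3-AID library 3 or auxin-treated DIS3-AID library 1.

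In polyA RNA 14 of 27 hosts rose and none fell, where 13.2% of all features rose and 3.88% fell (17 hosts had an unadjusted p under 0.05). The median log2 change was 0.19 against -0.01. SNHG20 went from 13.0, 13.5 and 13.9 CPM to 33.6, 37.8 and 39.8 CPM (1.46, SE 0.09, adjusted p = 8.28e-14, edgeR). SNHG3 (ENSG00000242125.3, chr1:28505980-28510892, plus strand), host of SNORA73A and SNORA73B, went from 68.7, 69.2 and 66.5 CPM to 137.0, 136.5 and 141.4 CPM (1.02, SE 0.06, adjusted p = 5.05e-14, edgeR). In both, all auxin libraries lay above all untreated ones.

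SNHG4 rose in polyA RNA from 26.2, 25.5 and 25.2 CPM to 50.6, 45.5 and 46.6 CPM (0.89, SE 0.08, adjusted p = 3.66e-10, edgeR). SNHG10 (ENSG00000247092.6, chr14:95532297-95534872, minus strand), the host of SCARNA13, rose from 10.8, 10.7 and 11.1 CPM to 18.0, 20.1 and 20.7 CPM (0.85, SE 0.09, adjusted p = 2.41e-08, edgeR). Neither had overlapping groups. The other 10 risers ran from SNHG26 (0.70) to SNHG7 (0.19), and SNHG15 and SNHG7 lost their calls without 1 of several DIS3-AID libraries (adjusted p up to 0.11 and 0.195, edgeR).

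DANCR rose in polyA RNA from 137.4, 144.3 and 139.0 CPM to 163.2, 168.1 and 161.2 CPM (0.23, SE 0.05, adjusted p = 0.00121, edgeR). GAS5, which rose in total RNA, held 133.9, 142.2 and 128.4 CPM and then 136.2, 129.7 and 130.4 CPM (-0.03, SE 0.06, adjusted p = 0.82, edgeR), with overlapping groups. ZFAS1 held 184.2, 204.3 and 186.7 CPM and then 185.9, 185.8 and 171.8 CPM, also overlapping (-0.08, SE 0.06, adjusted p = 0.398, edgeR). SNHG1 held 188.8, 192.0 and 184.7 CPM and then 216.2, 204.3 and 199.4 CPM (0.13, SE 0.05, adjusted p = 0.0726, edgeR), and these groups did not overlap. Against control cells the difference passed for 10 hosts, all positive, where 4.85% of all features passed as positive and 0.985% as negative, with SNHG20 again first (1.46, SE 0.13). It passed for 6 hosts without untreated control library 2 or 3, untreated DIS3-AID library 1 or auxin-treated DIS3-AID library 2.

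Across the data sets, 7 hosts rose in all 3: SNHG3, SNHG4, SNHG10, SNHG19, SNHG20, SNHG25 and SNHG26. The share of all features that rose in all 3 was not taken. Of the 7, SNHG25 lost its cytoplasm total and polyA calls with the nested snoRNA counts taken off. SNHG3 and SNHG10 lost their chromatin calls under several settings and left-out libraries. GAS5, SNHG11, SNHG12 and SNHG22 rose in cytoplasm total RNA and passed in neither of the others. The 2 cytoplasmic responses were compared in 1 fit. The polyA response minus the total RNA response passed lower for 7 of 27 hosts and higher for 1, where 3% and 5.29% of all features did. Without auxin-treated total RNA library 2, 5 hosts passed, all lower. The lower ones were SNHG12 (-0.79, SE 0.08), SNHG17 (-0.57, SE 0.08), SNHG15 and SNHG25 (-0.52 each), SNHG26 (-0.46), SNHG11 (-0.36) and GAS5 (-0.35), and the higher one was SNHG8 (0.29). With the nested snoRNA counts taken off, SNHG15 (-0.24, adjusted p = 0.103, edgeR) and SNHG25 lost their calls, and SNHG25 turned to 0.19 (adjusted p = 0.525, edgeR). The median of all features in this difference was 0.16 with TMM and -0.005 with library sizes alone, where the split was 0 higher and 8 lower. Same-numbered libraries of the same line and treatment deviated together here (r from 0.345 to 0.612), and the fit above did not use this pairing. With line, treatment and replicate number together as a block, 16 hosts passed, 7 higher and 9 lower.

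The polyA and total counts of SNHG12 show the difference in levels. In polyA RNA its untreated DIS3-AID libraries held 25.7, 25.8 and 25.7 CPM and its auxin libraries 29.2, 28.4 and 27.3 CPM, a log2 change of 0.14 that did not pass (adjusted p = 0.189, edgeR), although the groups did not overlap.

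The snoRNA features nested in the hosts were counted by the authors as features of their own. Where a snoRNA lies inside a host exon, the host count was at least as high as the snoRNA count in every library, in 45 of 45 pairs in each total RNA set and 44 of 44 in polyA RNA. How reads over more than 1 feature were counted is not given in the sources used here, and the sharing of single reads was not tested. Taking overlapping duplicate entries once, 138 snoRNA features lie within hosts and 48 could be tested in cytoplasm total RNA. After auxin in DIS3-AID cells, 16 of 20 H/ACA features rose and none fell, with a median log2 change of 1.49. Of 22 C/D features 4 rose and 2 fell, with a median of 0.09, which is near the 21.1% and 13.2% of all features that rose and fell. Of 4 scaRNAs, 2 rose. With duplicate entries included, the difference from control cells passed as positive for 22 of 53 tested features and as negative for 0. Of all features, 16.1% passed as positive and 3.31% as negative. On chromatin 5 of 19 H/ACA and 6 of 23 C/D features rose, with medians of 0.23 and 0.17, where 11% of all features rose.

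SNORA9, the guest of SNHG15, went from 1.40, 1.21 and 1.47 CPM to 9.74, 9.50 and 9.98 CPM in cytoplasm total RNA (2.84, SE 0.11, adjusted p = 2.25e-13, edgeR). It did not pass on chromatin, where it held 2.52, 2.87 and 2.86 CPM and then 2.79, 3.10 and 3.02 CPM (0.11, SE 0.10, adjusted p = 0.451, edgeR). Its groups did not overlap in the cytoplasm.

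SNORD1A shows a guest that rose while its host did not. It went from 0.988, 1.11 and 0.782 CPM to 5.77, 5.39 and 5.64 CPM (2.54, SE 0.14, adjusted p = 2.77e-11, edgeR), while SNHG16 held 831.2, 851.9 and 803.5 CPM and then 861.2, 845.1 and 790.0 CPM (0.01, SE 0.04, adjusted p = 0.934, edgeR). SNORD12 likewise rose from 1.22, 1.07 and 1.23 CPM to 2.48, 2.35 and 2.09 CPM (0.98, SE 0.11, adjusted p = 1.18e-06, edgeR) inside ZFAS1. Counting only snoRNAs inside host exons, SNORD1A and SNORD1C made up at most 0.719 ± 0.0277% of the SNHG16 count in cytoplasm total RNA. SNORD12 made up at most 1.98 ± 0.16% of the ZFAS1 count there. On chromatin these shares were at most 8.28 ± 0.707% and 4.08 ± 0.127%. SCARNA16, inside the most raised host, held 3.58, 4.94 and 3.87 CPM and then 6.37, 5.49 and 4.50 CPM, and did not pass (0.41, SE 0.18, adjusted p = 0.107, edgeR).

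As a share of the host count in cytoplasm total RNA, SNORA9 made up 6.52 ± 0.608% of SNHG15 in untreated and 25.4 ± 1.95% in auxin-treated DIS3-AID cells. In control cells it made up 3.41 ± 0.647% untreated and 3.51 ± 0.362% with auxin. In DIS3-AID cells the share rose from 3.67 ± 0.495% to 12.9 ± 1.22% in SNHG7, from 39.2 ± 4.67% to 70.3 ± 2.74% in SNHG25 and from 33.9 ± 0.698% to 51.7 ± 0.802% in SNHG12, each with no overlap of libraries and no test run. In SNHG20 it fell from 30.0 ± 4.28% to 15.9 ± 3.07%, and in SNHG1 it was 12.5 ± 0.422% and 12.4 ± 0.478%. Control cells held a SNHG20 share of 38.9 ± 3.48% untreated and 34.8 ± 5.6% with auxin. Only snoRNAs inside host exons enter these shares, which leaves out SNORD99 in SNHG12, SNORD104 in SNHG25 and SNORD30 in SNHG1. SNORD29 and SNORD31, which RefSeq also places in SNHG1, are not among its nested features by name and are left out too.

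**Figure D3:**
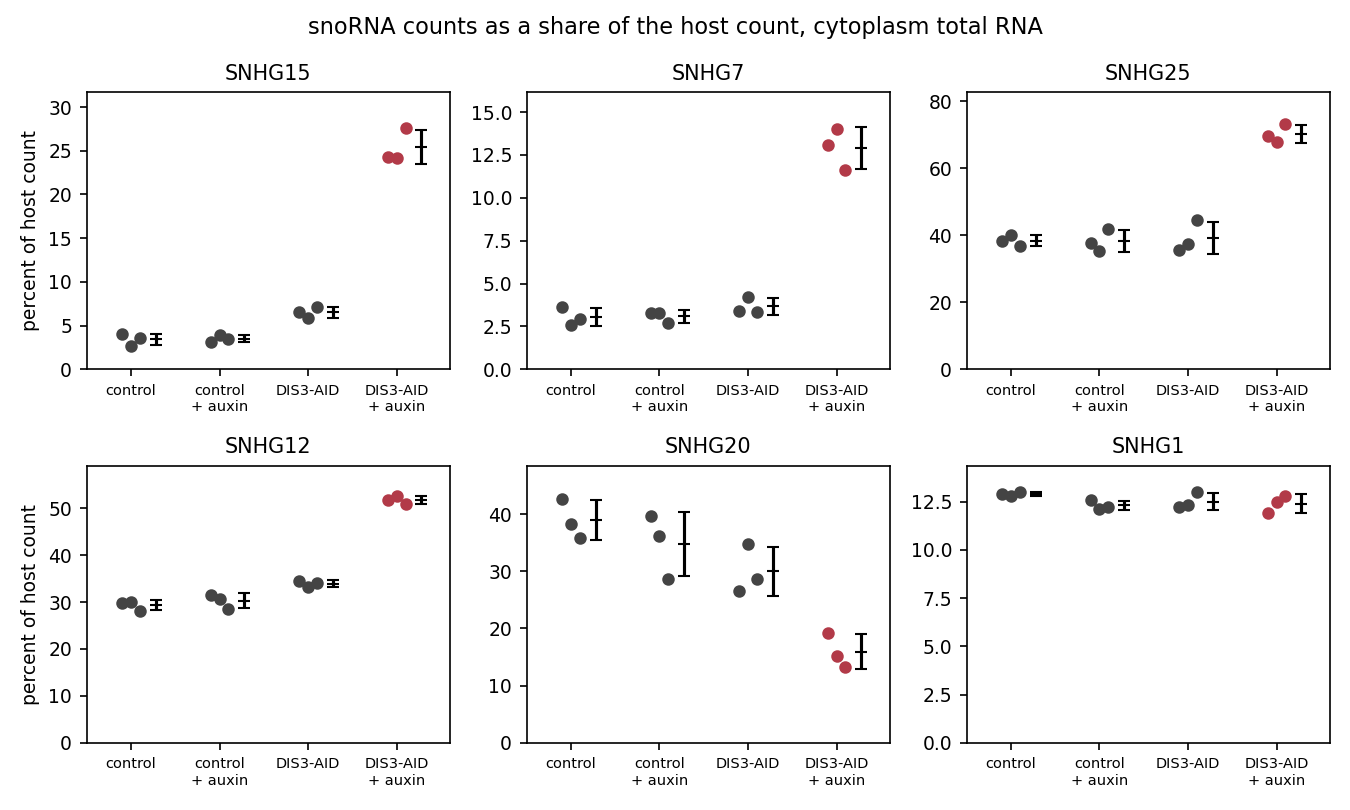
Counts of nested snoRNA features inside host exons as a percent of the host count (y axis, from 0). Each cytoplasm total RNA library of the 4 groups is shown, with mean and SD. In auxin-treated DIS3-AID cells (red) the share was higher in SNHG15, SNHG7, SNHG25 and SNHG12, lower in SNHG20 and overlapping in SNHG1.

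The counts of nested snoRNAs lying inside host exons were taken off once, a setting added after the data were seen. Under it 16 hosts rose in cytoplasm total RNA and 1 fell, and 17 of the 18 calls reported above were kept. SNHG25 was lost (0.19, adjusted p = 0.26, edgeR). SNHG20 rose more without its snoRNA counts (1.59), and SNHG12 (0.60), SNHG15 (0.56) and SNHG7 (0.33) rose less. On chromatin SNHG29 lost its call (0.11, adjusted p = 0.0924, edgeR) and SNHG25 kept it (0.62). In polyA RNA SNHG15, SNHG25 and SNHG7 lost their calls, which left 11 risers, and SNHG25 no longer passed in the difference from control cells (0.06, adjusted p = 0.924, edgeR). GAS5 could not be treated this way because its snoRNAs are not features of GENCODE 29. SNORD29 and SNORD31 in SNHG1 and SNORD50A in SNHG5 are not among the nested features by name, so they were not taken off either. SNHG4, SNHG10, SNHG19, SNHG21, SNHG26, SNHG30 and DANCR have no snoRNA feature inside their exons. Nothing was taken off these hosts, so the setting did not test their calls.

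In untreated control cells, 13 of 28 hosts were higher on chromatin and 13 lower, near the shares of all features, of which 46.2% were higher and 44% lower. Scaled by library size alone, 18 hosts were higher on chromatin and 9 lower, and the median of all features was 0.755 in place of 0.096. SNHG22 (ENSG00000267322.2, chr18:49814023-49851059, plus strand), host of SCARNA17, held 10.4, 10.7 and 11.8 CPM on chromatin and 1.02, 1.24 and 1.14 CPM in the cytoplasm (3.28, SE 0.11, adjusted p = 1.18e-26, edgeR). SNHG31 (ENSG00000229267.2, chr2:214810229-214963274, plus strand) held 20.6, 22.4 and 22.3 against 4.08, 4.39 and 4.28 CPM, and SNHG26 31.7, 27.9 and 29.5 against 12, 12.7 and 12 CPM. Their log2 differences were 2.36 (SE 0.08) and 1.28 (SE 0.07).

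At the cytoplasmic end, SNHG9 (ENSG00000255198.4, chr16:1964959-1965509, plus strand) held 0.754, 0.342 and 0.431 CPM on chromatin and 14.7, 14.2 and 14.4 CPM in the cytoplasm (-4.77, SE 0.14). SNHG32 held 1.61, 1.29 and 1.30 against 35.0, 34.7 and 33.8 CPM (-4.61, SE 0.09). SNHG16 (ENSG00000163597.14, chr17:76557766-76565348, plus strand) held 52.0, 51.6 and 50.6 against 1120.5, 1072.4 and 1055.0 CPM (-4.40, SE 0.07). In none of the 6 did the fractions overlap. Of the best known hosts, DANCR held 15.6, 14.7 and 14.8 CPM on chromatin and 95.5, 86.4 and 90.3 in the cytoplasm (-2.59), and SNHG1 held 91.0, 86.3 and 89.5 against 125.7, 121.8 and 115.8 CPM (-0.44). ZFAS1 held 197.1, 169.5 and 175.5 against 149.4, 133.6 and 141.3 CPM (0.35), and GAS5 held 93.7, 87.3 and 91.8 against 78.2, 70 and 72.4 CPM (0.31).

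The chromatin response to auxin minus the cytoplasmic one passed for 16 of 28 hosts in DIS3-AID cells, 7 higher and 9 lower, where 22.1% and 11% of all features passed and the median of all features was 0.16. The lower ones were led by SNHG20 (-0.76, SE 0.11), SNHG15 (-0.72, SE 0.10), SNHG12 and SNHG17 (-0.70, SE 0.09 each) and SNHG3 (-0.65, SE 0.10). The higher ones were SNHG9, SNHG32, SNHG8, SNHG29, SNHG16, SNHG5 and ZFAS1, from 0.65 to 0.26. With library sizes alone the split was 0 higher and 17 lower, so the positive differences depend on the scaling.

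Across the 28 hosts, the chromatin-minus-cytoplasm level in untreated control cells and the cytoplasmic auxin response of DIS3-AID cells had a Pearson r of 0.46 and a Spearman rho of 0.49, given as a description. The 2 measures come from different libraries but share the genes' length and counting. The 6 hosts lowest in chromatin minus cytoplasm were DANCR, SNHG8, SNHG29, SNHG16, SNHG32 and SNHG9, a set picked after the values were seen. Of these, DANCR rose in the cytoplasm and the others did not.

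**Figure D4:**
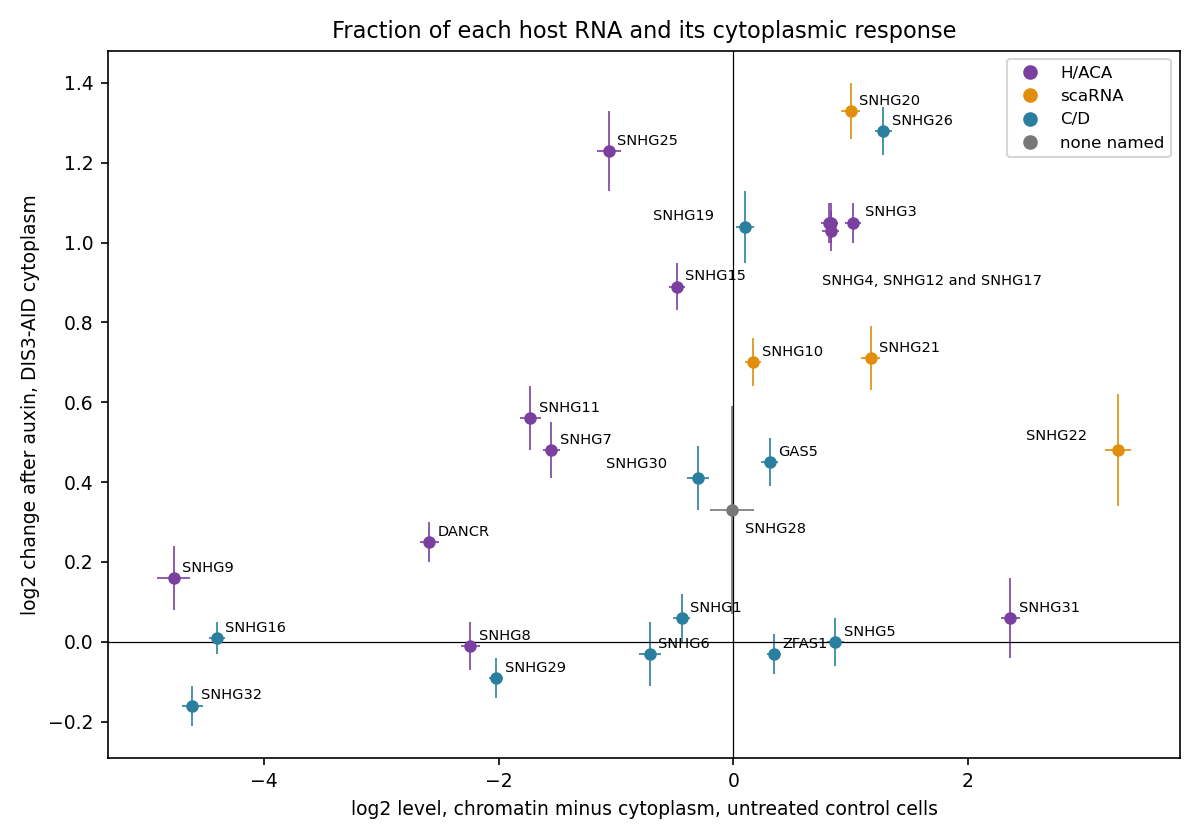
Each host by its log2 level on chromatin minus cytoplasm in untreated control cells (x axis) and its log2 change after auxin in DIS3-AID cytoplasm total RNA (y axis), with SE as bars and colours for the class of RNA carried; the points of SNHG4, SNHG12 and SNHG17 overlap and share a label. SNHG32, SNHG16, SNHG9, SNHG8 and SNHG29 lie low on both axes, and SNHG20 and SNHG26 high on both, with SNHG31, SNHG5 and ZFAS1 higher on chromatin and near 0 on the y axis.

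Untreated DIS3-AID and control cells differed before any auxin. In cytoplasm total RNA 5 of 28 hosts were higher in DIS3-AID cells and 4 lower, where 9.67% and 12.4% of all features were. SNHG12 held 16.6, 16.1 and 15.7 CPM in control and 21.7, 21.4 and 22.8 CPM in DIS3-AID cells (0.44, SE 0.05, adjusted p = 1.67e-05, edgeR). SNHG26 (9.19, 10.1 and 9.63 against 12.2, 13.5 and 12.8 CPM; 0.42) and SNHG15 (16.2, 15.8 and 16.8 against 21.1, 20.6 and 20.7 CPM; 0.36) were higher too, with no overlap. All 3 are among the hosts that rose further with auxin. Of 53 tested snoRNA features nested in hosts, duplicates included, 16 were higher in untreated DIS3-AID cytoplasm and 1 lower. Their median log2 difference was 0.44.

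The lower hosts were SNHG28, SNHG19, DANCR and SNHG9. SNHG28 held 0.529, 0.538 and 0.507 CPM in control and 0.273, 0.266 and 0.351 CPM in DIS3-AID cells (-0.83, SE 0.24, adjusted p = 0.0167, edgeR). SNHG19 held 5.18, 4.81 and 4.86 against 3.69, 4.39 and 3.67 CPM (-0.34, SE 0.09, adjusted p = 0.0105, edgeR), and DANCR 73.3, 68.3 and 72.6 against 60.0, 56.9 and 57.6 CPM (-0.30, SE 0.05, adjusted p = 0.00036, edgeR). None overlapped. SNHG28 lost its call without control library 1 or 2 or DIS3-AID library 1 or 2 (adjusted p from 0.0511 to 0.0777, edgeR), and SNHG19 without control library 1 or DIS3-AID library 1 or 3 (0.058 to 0.0672).

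On chromatin 4 hosts were higher in untreated DIS3-AID cells and 8 lower, where 15.2% and 17.4% of all features were. Of 53 tested nested snoRNA features, duplicates included, 0 were higher there and 14 lower, with a median of -0.1. SNHG3 held 279.4, 244.8 and 260.5 CPM in control and 216.3, 199.1 and 194.2 CPM in DIS3-AID cells (-0.36, SE 0.07, adjusted p = 0.000433, edgeR). SNHG8 held 9.25, 10.3 and 10.2 against 8.02, 6.45 and 7.37 CPM (-0.44), and SNHG5 75.2, 65.5 and 70.0 against 60.8, 55.2 and 58.2 CPM (-0.27). No library of these 3 overlapped between lines. SNHG1 was lower by less, with 111.9, 105.8 and 109.5 against 97.4, 92 and 103.3 CPM (-0.16, SE 0.06, adjusted p = 0.0343, edgeR), and it did not pass with the nested snoRNA counts taken off (-0.10, adjusted p = 0.182, edgeR).

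Among the hosts higher on DIS3-AID chromatin, SNHG7 held 32.0, 31.3 and 30.0 against 35.4, 37.5 and 40.3 CPM, and SNHG26 39.0, 34.2 and 36.1 against 46.0, 43.2 and 43.3 CPM (0.28, SE 0.06 each). SNHG32 held 1.97, 1.58 and 1.59 in control and 1.87, 2.52 and 2.53 CPM in DIS3-AID cells (0.41, SE 0.13, adjusted p = 0.0212, edgeR). Its groups overlapped, and it lost its call without library 2 or 3 of either group (adjusted p from 0.0669 to 0.116, edgeR).

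In polyA RNA 1 host was higher in untreated DIS3-AID cells and 4 lower, against 6.22% and 5.65% of all features. SNHG19 held 20.2, 20.3 and 22.4 CPM in control and 12.7, 14 and 16 CPM in DIS3-AID cells (-0.56, SE 0.08, adjusted p = 1.86e-05, edgeR). SNHG9 held 27.6, 27.9 and 32.4 against 22, 23.2 and 23 CPM (-0.37), ZFAS1 211.4, 219.1 and 230.1 against 184.2, 204.3 and 186.7 CPM (-0.20), and DANCR 158.7, 162.0 and 167.2 against 137.4, 144.3 and 139.0 CPM (-0.21). SNHG20 was the higher one, with 10.1, 11.8 and 10.8 against 13.0, 13.5 and 13.9 CPM (0.30, SE 0.09, adjusted p = 0.0284, edgeR), a call lost without control library 1 or 3 or any 1 DIS3-AID library (0.0717 to 0.125). These 5 had no overlap between lines, and 3 hosts passed without untreated DIS3-AID library 1.

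The other genes of snoRNA biology were read from lists. Of 50 protein-coding snoRNA hosts, 4 rose and 17 fell after auxin in DIS3-AID cytoplasm total RNA, with a median log2 change of -0.11, where 21.1% and 13.2% of all features rose and fell. The difference from control cells passed for fewer of them, 3 positive and 2 negative, where 16.1% and 3.31% of all features did. The risers were RABGGTB (0.67), NOP58 (0.45), EIF4A2 (0.32) and RCC1 (0.29), and the falls included RPL12 and RPS2 (-0.20 each), NCL (-0.17), and RPL7A and SLC25A3 (-0.11 each). Of the risers, RABGGTB, NOP58 and RCC1 also passed in the difference from control cells. Nested snoRNA counts were not taken off the protein-coding hosts. In polyA RNA 0 of 49 tested protein-coding hosts rose and 1 fell, where 13.2% and 3.88% of all features did. Of 19 snoRNA-protein and assembly factors, NOP58, a core box C/D protein, rose, and its partner NOP56 (-0.12) and the assembly factor ZNHIT3 (-0.23) fell, and of these 3 NOP58 alone passed in the difference from control cells. Of 18 NMD factors 2 passed, RBM8A (-0.15) and CASC3 (-0.13), both lower, a share near that of all features. In the difference from control cells neither passed (-0.12, adjusted p = 0.224, and -0.08, adjusted p = 0.429, edgeR).

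Start sites were read from RefSeq (GRCh38.p14), which held a promoter entry for 27 of the 31 hosts. Windows from 20 bases before to 30 from the start on follow for 6 hosts, chosen because they begin with a run of 5 or more pyrimidines, in capitals. SNHG12, SNHG4 and SNHG19 rose in cytoplasm total RNA, SNHG32 fell, and SNHG5 and ZFAS1 did not pass.
SNHG12: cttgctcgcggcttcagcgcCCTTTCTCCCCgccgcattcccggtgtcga
SNHG4: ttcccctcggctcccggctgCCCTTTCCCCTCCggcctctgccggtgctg
SNHG19: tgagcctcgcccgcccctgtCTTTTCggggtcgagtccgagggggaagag
SNHG32: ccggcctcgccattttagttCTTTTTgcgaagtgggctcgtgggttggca
SNHG5: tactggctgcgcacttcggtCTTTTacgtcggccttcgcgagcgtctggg
ZFAS1: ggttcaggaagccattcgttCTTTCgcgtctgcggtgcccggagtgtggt

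Such a run, read on the transcribed strand from the annotated start, was present in 7 of 27 hosts and in 5.17% of all 35116 promoters in the table. The RefSeq start of GAS5, at chr1:173869045, held none. It lies upstream of the GENCODE 29 start of this minus-strand gene at chr1:173868882, which was not read for a run. Among hosts with an entry, 3 of 15 risers and 2 of 8 that did not pass held it. The annotated start can lie some bases from the start used in these cells, and no start was measured here.

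Some hosts share exons with other genes, and the strand setting of the counting is not given in the sources used here. On the same strand, SNHG3 shares 5.9% of its exon bases with RCC1, SNHG4 shares 14% with MATR3, SNHG20 shares 7.6% with SEC14L1 and SNHG21 shares 72.9% with another non-coding transcript. SNHG28 lies wholly within the exons of a longer annotated gene, so its counts cannot be told apart from that gene's. On the opposite strand SNHG7 overlaps DIPK1B over 25.2% of its exon bases, SNHG10 overlaps GLRX5 over 20.1% and SNHG16 overlaps a protein-coding gene over 30.6%. RCC1 rose by 0.29 on the log2 scale in cytoplasm total RNA (adjusted p = 0.000106, edgeR), less than SNHG3 did, and its part in the SNHG3 counts was not tested. After auxin in DIS3-AID cells the MATR3 entry ENSG00000280987.4 rose in cytoplasm total RNA (0.17, adjusted p = 0.0406, edgeR) and on chromatin (0.28, adjusted p = 0.00038, edgeR). The MATR3 entry ENSG00000015479.18 passed in neither (-0.13, adjusted p = 0.154, and 0.12, adjusted p = 0.205, edgeR). The part of MATR3 in the SNHG4 counts was not tested.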

How the data were processed

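The authors deposited raw counts per feature for 36 libraries, 1 table each. STAR 2.7.3a, Cufflinks 2.2.1, featureCounts 2.0.0 and hg38 are named per the submitters' processing notes, and the parameters are not given in the sources used here. Per the labels, total RNA libraries were ribosome-depleted and stranded. Hosts were matched to GENCODE 29 by Ensembl ID, and for 6 of the 31 hosts only without the version. Each data set was fitted with all 4 groups in edgeR 4.0.16 (R 4.3.3): filterByExpr (min.count 10), TMM, robust quasi-likelihood F tests, Benjamini-Hochberg adjustment over all features. Fits across data sets joined their libraries. DESeq2 1.42.0 was the other tool. The script was tested on simulated data. Hosts, gene lists and guest classes were chosen with earlier results of these data known. Values were given in every library for the 4 largest rises and all falls in each auxin comparison, the 3 largest differences each way between untreated lines and between fractions in untreated control cells, and GAS5, ZFAS1, DANCR and SNHG1. The named snoRNAs and windows were chosen after their values were seen. The values of 1 gene and the sequence of 1 snoRNA are not reported here. Same-numbered libraries deviated together (r over 0.1 in every pair) for auxin in control cytoplasm (0.232 to 0.44), auxin in control polyA RNA (0.118 to 0.234) and the polyA minus total response (0.345 to 0.612, 6 pairs), but not elsewhere.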

Additional observations from a re-analysis of the deposited data

Results flagged for a closer look

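The auxin effect of DIS3-AID cells differed from that of control cells, by the test of the difference itself, for these hosts named above. In cytoplasm total RNA the differences in log2 change were 1.46 for SNHG20, 1.34 for SNHG25, 1.21 for SNHG26, 1.06 for SNHG4, 1.00 for SNHG19, 0.99 for SNHG12, 0.94 for SNHG3, 0.61 for SNHG10, 0.36 for GAS5 and 0.24 for DANCR. On chromatin they were 0.76 for SNHG25, 0.68 for SNHG19, 0.55 for SNHG4, 0.35 for SNHG20 and 0.29 for SNHG26. In polyA RNA they were 1.46 for SNHG20, 0.78 for SNHG3, 0.76 for SNHG4, 0.75 for SNHG10, 0.63 for SNHG26, 0.51 for SNHG25 and 0.50 for SNHG19. With the nested snoRNA counts taken off, SNHG25 passed in none of the 3 (0.30, 0.50 and 0.06 in that order).

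The response of DIS3-AID cells also differed between RNA fractions. Chromatin minus cytoplasm, the difference was 0.54 for SNHG32 and 0.26 for ZFAS1, and with library sizes alone no host was positive. It was -0.30 for SNHG10, -0.44 for SNHG4, -0.55 for SNHG26, -0.65 for SNHG3, -0.70 for SNHG12 and -0.76 for SNHG20. PolyA minus total RNA, it was -0.35 for GAS5, -0.46 for SNHG26, -0.52 for SNHG25 and -0.79 for SNHG12, and with the nested snoRNA counts taken off SNHG25 was at 0.19 and did not pass.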

How the results depend on the processing

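The number of hosts passing stayed within 1.5 times of that reported under every setting run other than those named here. With library sizes alone, 5 hosts passed on chromatin after auxin in DIS3-AID cells (8 with TMM) and 3 in the chromatin difference from control cells (5 with TMM). With line, treatment and replicate number together as a block, 16 passed in the polyA minus total response (8 without it). With the replicate number as a block, auxin in DIS3-AID cells gave 18, 8 and 14 in cytoplasm total, chromatin and polyA RNA, as without it. For auxin in control cytoplasm and control polyA RNA, the other comparisons whose numbers pair the libraries, the block gave 0 hosts, as without it. Leaving out each library in turn gave, for auxin in DIS3-AID cells, 17 to 18 hosts in cytoplasm total RNA, 5 to 8 on chromatin and 12 to 14 in polyA RNA. For the difference from control cells it gave 15 to 16, 3 to 5 and 6 to 10, and for auxin in control cells 0 to 0, 0 to 2 and 0 to 1. For the untreated lines it gave 6 to 10, 8 to 12 and 3 to 6, and for chromatin minus cytoplasm 25 to 26. For the difference in response it gave 13 to 18 between chromatin and cytoplasm and 5 to 10 between polyA and total RNA. Subtracting every nested snoRNA feature inside host exons, duplicates counted more than once, turned SNHG25 to -9.74 in cytoplasm total RNA and -1.55 in polyA RNA. Counted once, its nested snoRNAs made up 70.3 ± 2.74% and 48.4 ± 6.36% of its count there in auxin-treated DIS3-AID cells. Taking duplicates off again can thus remove most or all of the host count. Subtracted once, SNHG25 kept its direction in both. In the polyA minus total response it turned from -0.52 to 0.19 and lost its call. The cause was not tested for the other changes. SNHG14, SNHG18 and SNHG27, with 110, 1 and 2 counts over the 24 total RNA libraries, were too low to be tested. The low counts of SNHG22 and SNHG28 gave the widest errors in cytoplasm total RNA. One auxin-treated control polyA library, number 3, gave the 1 host in that range when left out.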
